A study of Mus musculus with 6 samples.

Results

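The genes described here form the core of B cell receptor signalling: Cd79a, Cd79b, Syk, Lyn, Blk, Btk, Blnk, Plcg2 and Prkcb. They were chosen by name, as the symbols that the array's annotation gives. Of the 9 genes 8 had at least 1 probe set with a single symbol, together 13 probe sets, out of 18193 genes measured in all. Lyn, a Src family kinase, had no single-symbol probe set in the annotation used and was not analysed here. Syk had 4 probe sets, Prkcb had 3 and each of the other 6 genes had 1. Where a gene had several, it is represented by the one whose mean over the 6 samples was highest. The means of all 8 genes, and of all 13 probe sets, lay above the median of probe set means, so no member depended on a filter on dim signals, and none was applied.

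RNA was measured on Affymetrix arrays in splenic B cells of 6 mice, 3 per group. Both groups carried EµBcl2, a Bcl2 transgene under the immunoglobulin heavy chain enhancer, which is active in B cells. The control group was CBPF/F x EµBcl2, in which Crebbp, the gene of the histone acetyltransferase CBP, was floxed (flanked by recombination sites), and the other group was CBPΔ/Δ x EµBcl2, in which Crebbp was deleted. No group without the transgene was analysed here, so every difference below is one between cells that over-express Bcl2. B cells came from spleen cells that had been cryopreserved, and they were left untouched while beads took away CD43+ cells. The age of the mice and the Cre line that removed Crebbp are not given in the sources used here. The sample labels do not say whether the floxed mice carried Cre. An effect of Cre itself therefore cannot be told apart here from that of losing Crebbp. As background, a widely used line for deletion in B cells, mb1-Cre, has Cre inserted into an allele of Cd79a (whose older name is mb-1) and disrupts that allele, which leaves the other allele intact in a heterozygous carrier.

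A B cell senses antigen with membrane immunoglobulin, which has almost no cytoplasmic part and signals through a heterodimer of Cd79a (Igα) and Cd79b (Igβ). Src family kinases, chiefly Lyn and Blk with Fyn, phosphorylate the tyrosine motifs of that pair, and Syk docks on them. Syk phosphorylates the adaptor Blnk, which brings Btk and the phospholipase Plcg2 together. Plcg2 makes the messengers that release calcium and activate protein kinase C beta (Prkcb), which leads on to NF-kB. Mice without Cd79a or Cd79b make almost no mature B cells.

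Upstream sequence was held in the RefSeq promoter table (GRCm38.p6) for 6 members, Cd79a, Prkcb, Plcg2, Syk, Blnk and Btk, with 2 starts for Syk. The 250 bases before the start of 3 of them are shown because they cover the kinds of result found: Cd79a, which fell, Blnk, whose groups were apart without a call, and Prkcb, whose level was close to the same in both groups. Capitals mark matches on either strand to GGAA, the core letters of ETS factor sites, and to ATGCAAAT, the octamer bound by Oct factors. The Cd79a sequence lies at chr7:24897247-24897496 on the plus strand, that of Blnk at chr19:40994222-40994471 on the minus strand and that of Prkcb at chr7:122288875-122289124 on the plus strand.
Cd79a: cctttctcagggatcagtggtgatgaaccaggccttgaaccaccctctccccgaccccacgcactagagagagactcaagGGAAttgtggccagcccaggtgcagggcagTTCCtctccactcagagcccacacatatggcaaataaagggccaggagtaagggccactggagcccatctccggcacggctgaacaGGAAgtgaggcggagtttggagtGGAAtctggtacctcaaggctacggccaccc
Blnk: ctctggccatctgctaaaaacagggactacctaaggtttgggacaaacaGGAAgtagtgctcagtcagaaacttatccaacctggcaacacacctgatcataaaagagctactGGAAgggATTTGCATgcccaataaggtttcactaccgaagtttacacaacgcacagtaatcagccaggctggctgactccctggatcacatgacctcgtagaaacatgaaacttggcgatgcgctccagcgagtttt
Prkcb: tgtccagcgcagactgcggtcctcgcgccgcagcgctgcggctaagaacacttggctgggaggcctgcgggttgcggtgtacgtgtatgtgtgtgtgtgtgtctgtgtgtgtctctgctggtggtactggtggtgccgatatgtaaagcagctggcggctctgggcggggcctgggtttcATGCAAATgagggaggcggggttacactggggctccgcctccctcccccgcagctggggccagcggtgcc

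The Cd79a window held 4 matches to GGAA, that of Blnk 2 and that of Prkcb 0, and 93.4% of the 32851 promoters in the table held at least 1. The octamer was found in the windows of Blnk and Prkcb and in 1.6% of all promoters. None of the 7 member windows held the full cyclic AMP response element TGACGTCA or its core TGACG, the letters that CREB, a partner of CBP, recognises, and these were in 1.55% and 17.8% of all promoters. None held CCCNNGGG, a pattern of EBF sites found in 11.8%. CANNTG, the E-box of E proteins, was in all 7 and in 66.2% of all promoters. A match describes the letters only, and a window without one says nothing about the factor.

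Crebbp itself, the check of the labels, was lower in all 3 deleted samples than in all 3 floxed ones, at 70.6% of the floxed level (log2 difference −0.50 ± 0.10 SE, limma adjusted p = 0.0776), and all 4 of its probe sets were lower. The mean of its probe sets gave −0.70 and passed (limma adjusted p = 0.039), the most variable one gave −0.97 and did not (0.0641), and with a trended and robust variance the difference of −0.50 passed (0.0483). Of the 18193 genes 142 passed limma's test at an adjusted p under 0.05, 0.781% of all, with 99 higher and 43 lower. By Xist and Y-linked genes the mice of floxed sample 1, deleted sample 1 and deleted sample 3 were male, and those of the other 3 samples female. B cell genes were high in every sample, with Ms4a1 (CD20) at log2 intensities of 12.43 to 12.80. T, NK, dendritic cell and neutrophil lists had 0 called members each by limma (also 0 with an unadjusted p under 0.05). Of the 10 measured T cell genes 6 had positive and 4 negative differences. The T cell gene Cd3e lay between 4.66 and 5.02. Cd3d lay at 5.01, 4.81 and 4.99 in floxed and at 5.75, 5.74 and 4.83 in deleted samples (difference 0.50, limma adjusted p = 0.386). Values of plasma cell and macrophage genes are given beside the results. In bulk samples fewer cells of a type and less RNA per cell cannot be told apart.

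The antigen receptor's pair of signalling chains came apart. Cd79a fell to 46.4% of its floxed level (95% confidence interval 39.3% to 54.8%) while no change was detected in Cd79b. In the kinases and adaptors behind them no gene passed the test, and only Blnk had groups that did not overlap. So 1 of 8 members was called, and it was lower, beside 0.781% of all genes called in either direction and 0.236% called lower. The median difference of the 8 members was −0.12, against 0.01 over all genes, with 5 negative and 3 positive. Groups did not overlap in 2 members, both lower, beside 10% of all genes with the deleted samples wholly below the floxed ones and 21.2% in either direction. Differences are given as Crebbp-deleted minus Crebbp-floxed in log2 units.

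**Figure D1:**
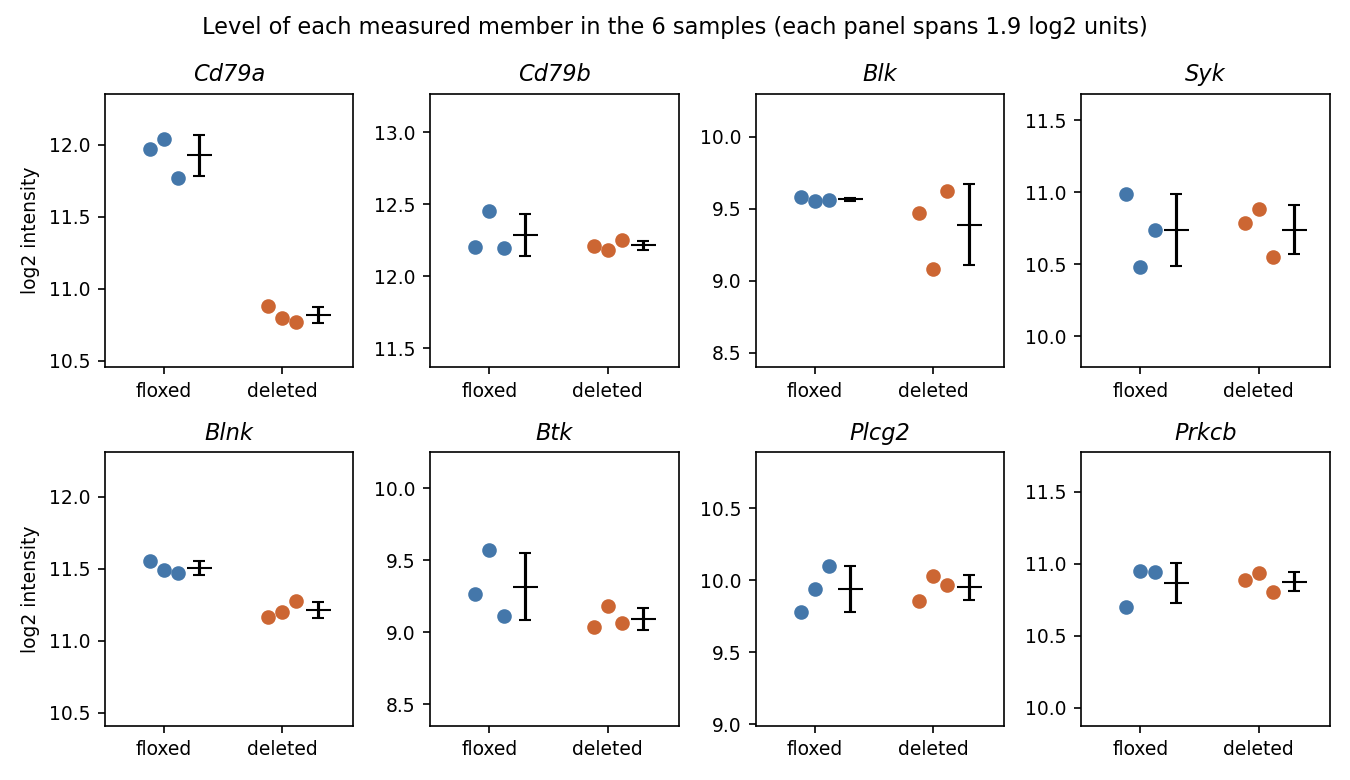
Log2 intensity of the 8 measured members in each of the 6 samples, with floxed samples in blue, deleted samples in orange, and black bars for the mean ± SD (n = 3 each). Every panel spans the same 1.9 log2 units, around a different level. The Cd79a panel shows the deleted samples at 10.77 to 10.88, all below the floxed samples at 11.77 to 12.04, and in Blnk the groups are apart by a smaller step.

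Cd79a, the Igα chain, had intensities of 4012, 4211 and 3486 in floxed samples 1, 2 and 3 and of 1887, 1783 and 1749 in deleted samples 1, 2 and 3. The deleted samples lay close together, and the lowest floxed sample was far above the highest of them. On the log2 scale the group means were 11.93 ± 0.14 and 10.82 ± 0.06 (SD, n = 3 each), which differ by −1.11 ± 0.10 (SE; adjusted p = 0.00928 in limma). That is 46.4% of the floxed level, with a 95% confidence interval of 39.3% to 54.8%, and the gene ranked 16 of 18193 by p. The probe set, 1418830_at, also passed among all 45037 probe sets (limma adjusted p = 0.0184), where 0.411% passed. The gene lies on chromosome 7 from 24897497 to 24901858 (GRCm38.p6). Whether the mice carried Cre in a Cd79a allele was not tested, and neither was the position of the probe set in the gene.

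The fall of Cd79a was of the same size in both sexes. It was −1.14 within males and −1.10 within females, each with 1 sample alone in its group and past no threshold (limma adjusted p = 0.105 and 0.84), and −1.12 with sex as a term (limma adjusted p = 0.0381). Leaving out 1 sample at a time gave differences from −1.19 to −1.05. The adjusted p rose to 0.0591 without floxed sample 1 and to 0.0566 without deleted sample 1 by limma. So the call, unlike the size, needs both of these samples. That was so for most calls: over all genes limma called 0 without floxed sample 1 and 16 without deleted sample 1. Among all probe sets 0 member probe sets passed limma without floxed sample 1, deleted sample 1 or deleted sample 2, or with sex as a term.

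Cd79b, the Igβ chain that pairs with Cd79a, had intensities of 4703, 5604 and 4698 in floxed samples and 4731, 4652 and 4863 in deleted samples. Apart from the higher floxed sample 2, the 6 values lay together. The difference was −0.07 ± 0.10 (SE, limma adjusted p = 0.808), and its 95% confidence interval, from 80.8% to 112% of the floxed level, leaves out a fall as deep as that of Cd79a. Set against Cd79b in the same sample, Cd79a was lower by 0.97, 1.03 and 1.12 log2 units in deleted samples 1, 2 and 3 relative to the floxed mean, while the floxed samples ran from −0.07 to 0.13. The change of Cd79a exceeded that of Cd79b by −1.04 log2 units, and the exact permutation p was 0.1, the smallest that 3 samples against 3 can give. The same comparison with the other 6 members gave differences from −1.12 to −0.82, with Blnk nearest, and the same exact p of 0.1 for each of the 7 comparisons, also after adjustment over the 7.

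No fall was called among the genes measured beside Cd79a. This set was chosen after the fall was known: the 5 measured genes on each side in the RefSeq order. Of these 10 genes limma called 0, and their differences ran from −0.13 to 0.42. An unadjusted p under 0.05 was found for 3, all higher, beside 14.8% of all genes. Only 6 lay above the median of probe set means, 4.29, with Grik5 just above it at 4.48. Cd177, Ceacam10, Lypd4 and Dmrtc2 lay at 2.49 to 3.09, where a fall could hardly be seen. On one side the ribosomal protein gene Rps19 differed by −0.04 ± 0.08 (SE), and on the other Arhgef1, a guanine exchange factor, by −0.01 ± 0.12. Rabac1 and Pou2f2, which encodes the octamer-binding factor Oct-2, stood 0.42 and 0.36 higher without passing (limma adjusted p = 0.154 and 0.22).

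Markers of other cells moved in the same samples. Plasma cells, as background, turn down many B cell genes as they form. The summed intensity of 12 plasma cell genes ran from 6727 to 7491 in floxed and from 12998 to 22312 in deleted samples. Of their differences 12 of 12 were positive, with a median of 1.23. Limma called 1, Jchain, beside 0.544% of all genes called higher. Its unadjusted p was under 0.05 for 10 of the 12, all higher, beside 14.8% of all genes in either direction. The summed intensity of 14 macrophage and monocyte genes ran from 568 to 1812 in floxed and from 1636 to 3891 in deleted samples. Of their differences 13 of 14 were positive, with a median of 1.36 and 0 called by limma. For 9 the unadjusted p was under 0.05, beside 14.8% of all genes. As background, plasma cells and many myeloid cells carry CD43, the protein the beads bind. The part of these cells in the difference of Cd79a was not tested. In deleted samples 1, 2 and 3 plasma cell sums of 12998, 13668 and 22312 went with Cd79a levels of 10.88, 10.80 and 10.77. In floxed samples 1, 2 and 3 sums of 7491, 7464 and 6727 went with levels of 11.97, 12.04 and 11.77. The lowest Cd79a level thus went with the highest sum within the deleted group and with the lowest sum within the floxed group. Macrophage sums were 3255, 1636 and 3891 in deleted samples 1, 2 and 3 and 1812, 568 and 995 in floxed samples 1, 2 and 3.

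**Figure D2:**
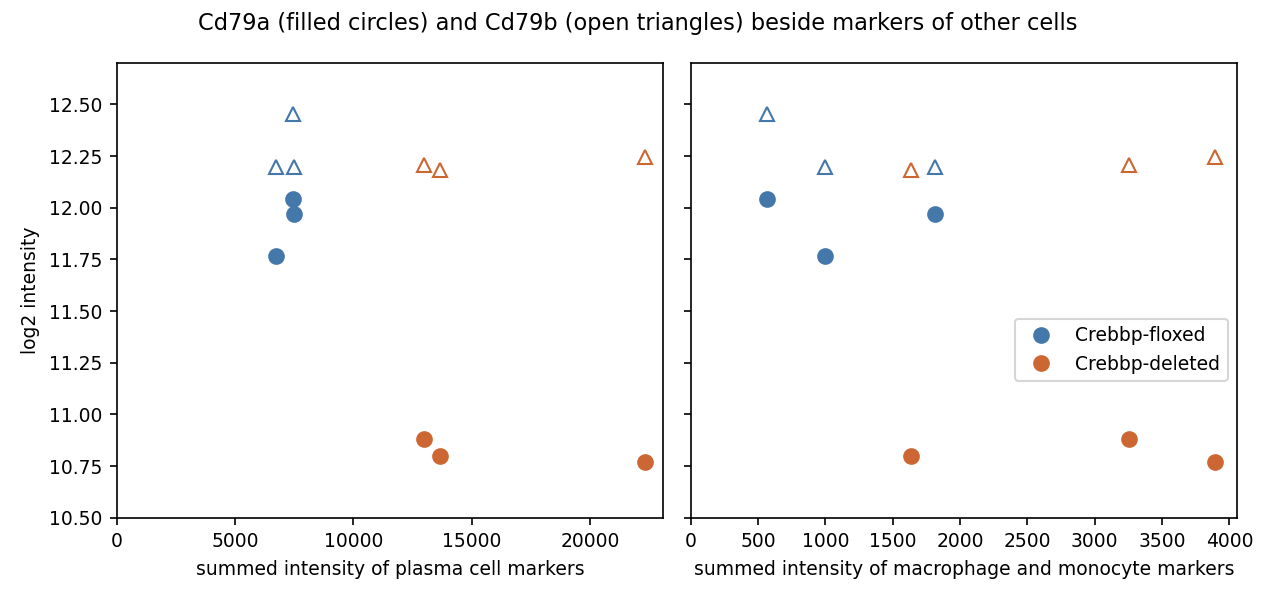
Log2 intensity of Cd79a (filled circles) and Cd79b (open triangles) in each sample against the summed intensity of 12 plasma cell genes (left) and 14 macrophage and monocyte genes (right), floxed in blue and deleted in orange. Cd79a lies at 10.77 to 10.88 in the deleted samples, whose plasma cell sums run from 12998 to 22312. In the floxed samples it lies at 11.77 to 12.04, and their sums run from 6727 to 7491. Cd79b lies at 12.18 to 12.45 throughout.

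Of the 7 measured B cell markers that are not members, 6 had negative differences and 1 a positive one, with a median of −0.27. By limma 0 passed, and 3 had an unadjusted p under 0.05, beside 14.8% of all genes. Fcer2a, the low-affinity IgE receptor of follicular B cells, had a difference of −1.03 (limma adjusted p = 0.0568) and Cr2, the complement receptor, one of −0.75 (adjusted p = 0.164). Ms4a1, Cd37 and the B lineage factor Pax5 had differences of −0.17, −0.13 and −0.27, and Ebf1, a factor that acts on the Cd79a promoter in early B cells, one of 0.09, with adjusted p-values of 0.447 to 0.711 by limma.

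Among the kinases next to the receptor, Blk and Syk did not pass. Blk, a Src family kinase largely restricted to B cells, had log2 intensities of 9.58, 9.56 and 9.56 in floxed and 9.47, 9.08 and 9.62 in deleted samples. Only deleted sample 2 was apart from the rest, and the groups overlapped. The difference was −0.18 ± 0.14 (SE, 95% confidence interval −0.51 to 0.16, limma adjusted p = 0.626), and without deleted sample 2 it was −0.02.

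Syk, the kinase that docks on the phosphorylated chains, had log2 intensities of 10.99, 10.48 and 10.74 in floxed and 10.79, 10.89 and 10.55 in deleted samples at its representative probe set 1418261_at. The floxed samples spanned the deleted ones, and the difference was 0.005 ± 0.15 (SE, limma adjusted p = 0.993). Its interval, from 78.5% to 128% of the floxed level, is among the wider ones of the 8 members. The other probe sets, 1418262_at, 1425797_a_at and the dimmest, 1457239_at, differed by 0.08, 0.02 and 0.25, and none passed. At 1457239_at the deleted samples themselves ran from 6.32 to 7.80, a wider range than the 6.61 to 7.20 of the floxed ones. Macrophages also make Syk. Of the 14 measured macrophage and monocyte genes 0 passed limma's test and 9 had an unadjusted p under 0.05, all higher, and their part in the level of Syk was not tested.

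The adaptor Blnk was the second member with groups apart. Its log2 intensities were 11.56, 11.49 and 11.47 in floxed and 11.16, 11.20 and 11.28 in deleted samples. All deleted samples lay below all floxed ones, with little spread inside either group. That is 81.8% of the floxed level, with a 95% confidence interval of 71.2% to 93.9%. The difference of −0.29 ± 0.09 (SE) had an unadjusted p of 0.0103 and did not pass over all genes (limma adjusted p = 0.177), beside 14.8% of all genes with an unadjusted p under 0.05. It was −0.34 within males and −0.28 within females, and from −0.32 to −0.26 without 1 sample at a time.

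Btk, the Tec family kinase on the X chromosome whose loss causes immunodeficiency, had log2 intensities of 9.26, 9.57 and 9.12 in floxed and 9.03, 9.18 and 9.06 in deleted samples. Floxed sample 2 was the highest, and floxed sample 3 lay below deleted sample 2. The difference was −0.22 ± 0.13 (SE, 95% confidence interval −0.53 to 0.08, limma adjusted p = 0.48), and −0.10 without floxed sample 2. Floxed sample 2 also had the highest values of Cd79a and Cd79b.

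The phospholipase Plcg2 had log2 intensities of 9.78, 9.94 and 10.10 in floxed and 9.86, 10.03 and 9.96 in deleted samples. The deleted values all fell inside the floxed range. The difference was 0.01 ± 0.11 (SE, limma adjusted p = 0.976), with an interval of 84.3% to 120% of the floxed level.

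Prkcb, protein kinase C beta, had log2 intensities of 10.70, 10.95 and 10.94 in floxed and 10.88, 10.93 and 10.80 in deleted samples at 1460419_a_at. Here too the deleted values fell inside the floxed range, and the difference was 0.01 ± 0.10 (SE, limma adjusted p = 0.975), with an interval of 85.3% to 119%. A further probe set, 1423478_at, differed by 0.04, and the dimmest, 1443144_at, by −0.19, where deleted sample 3 was at 4.92 and the other 5 samples at 5.72 to 6.03. Neither passed. For every other measured member a fall of the size seen in Cd79a lies outside the interval of the representative probe set. The lowest limits were those of Btk, Blk and Blnk, at 69.4%, 70.3% and 71.2% of the floxed level.

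**Figure D3:**
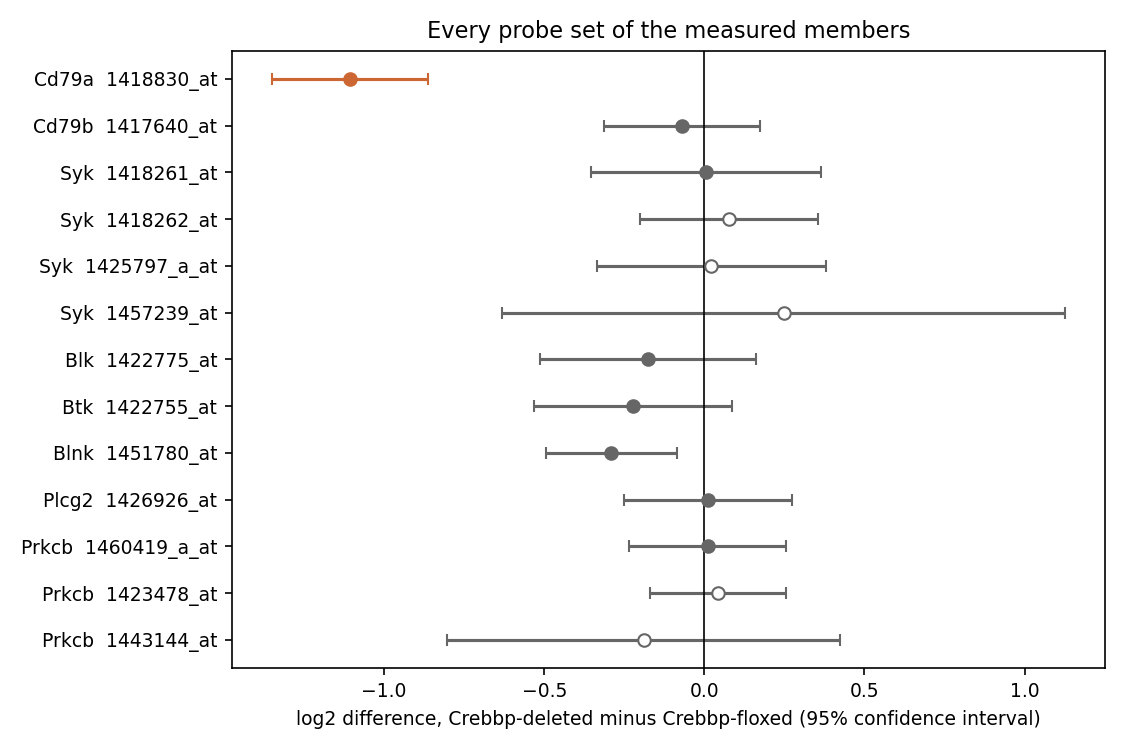
Log2 difference of every member probe set with its 95% confidence interval from limma fitted on all 45037 probe sets (n = 3 each). Filled points are the representative of each gene, and orange marks an adjusted p under 0.05. Cd79a at −1.11 is the only one of the 13 past the test, and the interval of 1457239_at for Syk is the widest.

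The wider pathway leaned lower with few calls. Over 7 lists of other pathway genes, with 80 genes measured of 93 listed, 53 differences were negative and 27 positive (66.2% negative, against 46.6% of all genes), with a median of −0.15 against 0.01. Of the 80, limma called 1 lower and 2 higher, 3.75% beside 0.781% of all genes, and 19 lower and 4 higher had an unadjusted p under 0.05, where 6.84% of all genes were lower by that rule. These lists were drawn up with earlier results of these data known, and their lean is a description.

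Among other Src family kinases and their regulators, 6 of 7 measured genes were lower (median −0.23), and the call went the other way. Yes1, a widely expressed Src family kinase, rose, with log2 intensities of 2.76, 2.77 and 3.40 in floxed and 4.77, 5.21 and 5.02 in deleted samples. All 4 of its probe sets were higher (representative difference 2.02 ± 0.20 SE, limma adjusted p = 0.0107), but it started below the median of probe set means, 4.29. The size depends on the setting: it was 1.00 with a pseudocount of 16 and 1.01 with the mean of its probe sets (limma adjusted p = 0.0331 and 0.0153). Fyn, Fgr, the kinase Csk that holds Src kinases inactive and its anchor Pag1 had differences of −0.27, −0.33, −0.11 and −0.70, none past the test. The phosphatase Ptprc (CD45), which activates Src kinases in B cells, had one of −0.23.

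In the co-receptor and PI3K arm 0 of 11 genes passed limma's test, 9 were lower, and the median was −0.20. An unadjusted p under 0.05 was found for 2, beside 14.8% of all genes. Those with the smallest p were Cr2 at −0.75, the adaptor Dapp1 at −0.34 and Pik3cg, a PI3K catalytic subunit, at −0.35 (limma adjusted p = 0.164, 0.184 and 0.342). Among inhibitory receptors and phosphatases 1 of 12 passed, beside 0.781% of all genes. Of the 12 differences 7 were negative and 5 positive, with a median of −0.17. An unadjusted p under 0.05 was found for 4 lower and 1 higher, beside 14.8% of all genes in either direction. Cd72, a lectin-like receptor that recruits the phosphatase SHP-1, fell, from 10.04, 9.85 and 10.09 in floxed to 9.13, 8.97 and 8.77 in deleted samples (difference −1.04 ± 0.12 SE, limma adjusted p = 0.0201), a step close in size to that of Cd79a.

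In the adaptor, exchange factor and Ras arm 0 of 15 genes passed limma's test, and the median was −0.09. An unadjusted p under 0.05 was found for 6, all lower, beside 6.84% of all genes lower by that rule. Those with the smallest p were the adaptor Sh3bp2, the MAP kinase kinase Map2k1 and the cortactin-like Hcls1. They had differences of −0.67, −0.50 and −0.49 (limma adjusted p = 0.0679, 0.0729 and 0.213). Groups were apart in 6 of the 15 genes, these among them and all lower, beside 10% of all genes apart in this direction. In the calcium and NFAT arm 0 of 12 passed, and the median was −0.07. There 2 had an unadjusted p under 0.05, beside 14.8% of all genes. Nfatc1, a calcineurin-dependent transcription factor, had a difference of −0.87 with all 5 probe sets lower (limma adjusted p = 0.0564), the calcium channel Orai1 one of −0.45 and Nfatc3 one of −0.27. That of Nfatc1 was −0.46 with the mean of its probe sets and −0.43 with the most variable one (limma adjusted p = 0.505 and 0.694), and it passed with a trended and robust variance (0.031) and, at −1.01, without floxed sample 2 (0.0382).

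All 8 measured genes of the NF-kB arm had negative differences, from −0.55 to −0.10, and 0 passed limma's test. An unadjusted p under 0.05 was found for 2, beside 6.84% of all genes lower by that rule. The NF-kB subunit Rela and the adaptor Bcl10 both had differences of −0.24, and the inhibitor Nfkbia one of −0.19 (limma adjusted p = 0.281, 0.283 and 0.365). The groups did not overlap in 5 of the 8 genes, beside 10% of all genes apart in this direction.

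Paralogs are related genes, several of them used in other lineages or tissues. Of 19 measured paralogs of the members 11 had negative and 8 positive differences. Limma called 2 higher, Yes1 and the atypical protein kinase C Prkcz, beside 0.544% of all genes called higher, and 0 lower (1 lower had an unadjusted p under 0.05), with a median of −0.05. Prkcz had log2 intensities of 5.26, 4.95 and 5.36 in floxed and 6.35, 6.30 and 6.10 in deleted samples. The difference was 1.06 ± 0.13 (SE, limma adjusted p = 0.0211), and all 3 of its probe sets were higher. Its signal was dim, and the difference was 0.81 both with a pseudocount of 16 and with the mean of its probe sets (limma adjusted p = 0.0341 and 0.0166). Fcer1g, the signalling chain of Fc receptors in myeloid cells, stood 0.95 higher without passing (limma adjusted p = 0.247). The calls of Yes1, Prkcz and Cd72 were lost without floxed sample 1 (limma adjusted p = 0.0681, 0.0942 and 0.0994) and without deleted sample 1 (0.0516, 0.108 and 0.0671). Over all genes limma called 0 without floxed sample 1 and 16 without deleted sample 1, so these losses are not particular to the 3 genes. Those of Prkcz and Cd72 were also lost without deleted sample 2 (limma adjusted p = 0.0728 and 0.0653) and with sex as a term (0.0702 and 0.0655).

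**Figure D4:**
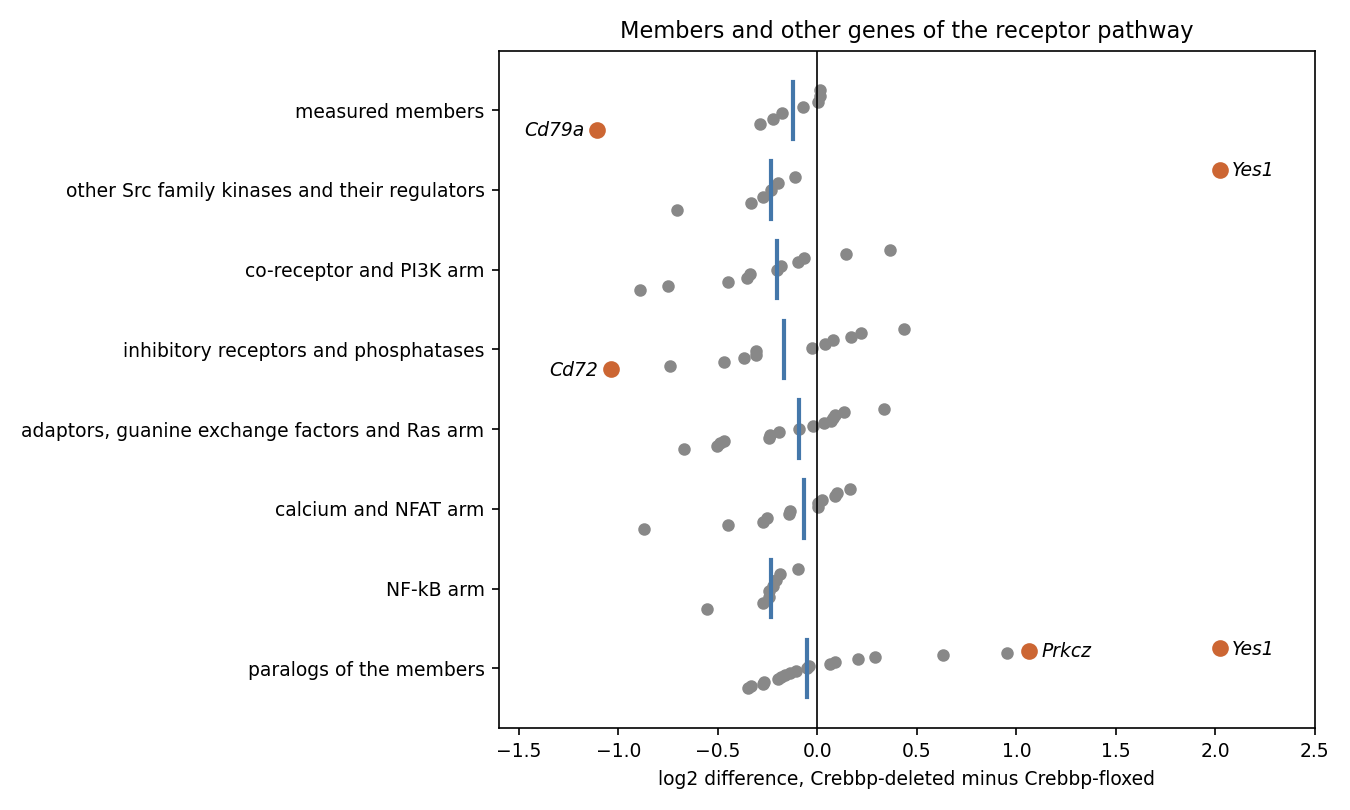
Log2 difference of each measured member and of the genes of 7 pathway lists. Each point is a gene, blue bars are list medians, orange points have a limma adjusted p under 0.05, and Yes1 is in 2 lists. Cd79a and Cd72 lie near −1 and Prkcz and Yes1 above 1, and the list medians run from −0.23 to −0.05.

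Genes whose profile over the 6 samples was most like that of Cd79a were sought among 10588 others above the median of probe set means, by the root mean square distance between mean-centred log2 values. They were Ms4a4c, a relative of CD20, at 0.05 log2 units, Trim5 at 0.10, Trim12a at 0.12, the peptidoglycan hydrolase Pglyrp2 at 0.13 and Ppcs, an enzyme of coenzyme A synthesis, at 0.14. All 5 were lower in the deleted samples, by 0.98 to 1.24, which the choice by likeness fixes. Ms4a4c had log2 intensities of 10.78, 10.78 and 10.44 in floxed and 9.66, 9.62 and 9.48 in deleted samples, so that, as in Cd79a, floxed sample 3 was the lowest control and deleted sample 3 the lowest of all. No member or gene of the pathway lists was among the 5.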

How the data were processed

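Each of 6 arrays has 1 deposited intensity for every probe set. The authors used RMA, per the submitters' processing notes, which corrects background, equalises quantiles and summarises probes. No version of it is given here. The intensities, as deposited, run from 2.96 to 17022 and were read as linear and log2-transformed here, with no further normalization. Of 45101 probe sets 64 controls were left out. Symbols came from the platform annotation (34958 probe sets with 1 symbol, 932 with several, 9211 with none), checked by Entrez ID in the RefSeq table of GRCm38.p6, which changed 0.

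Each gene was represented by its brightest probe set. The test was limma 3.58.1 under R 4.3.3 (lmFit, eBayes, two-sided, no covariates) with Benjamini-Hochberg adjustment over all genes and a threshold of 0.05. The procedure was tested on simulated data. The design text gives 3 mice per strain. Named genes were all members, and in each pathway list those called or else the 3 with the smallest p; others named were chosen after their values were seen. Members and lists were chosen with earlier results of these data known. Alternatives covered normalization, dim genes, probe set choice, pseudocount, limma settings, sex, replicate block and leaving out samples; fits within each sex were added after seeing the data. Arrays have no depth, and their number limits the precision. Protein sequences were not used here.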

Additional observations from a re-analysis of the deposited data

How the results depend on the processing

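In the 9 alternatives that kept all 6 samples and both sexes together, Cd79a was called each time (difference −1.14 to −1.10). The number of members called, and of their probe sets called, ranged from 0 to 1 without 1 sample at a time, and the count of all genes called from 0 to 226. The count of all genes was 222 with an intensity trend and robust variance and 37 with sex as a term, where 0 member probe sets passed among all probe sets. Within females it was 0 and within males 4, with 0 members called in either and a member median of −0.15 within females. With a replicate block, since the groups share the numbers 1 to 3, 126 genes and 1 member passed (Cd79a, limma adjusted p = 0.0225), but the deviations of same-numbered samples correlated by 0.033, 0.104 and 0.0059, so the numbers were not treated as pairs. The member median, −0.12, was −0.18 with the most variable probe sets, −0.15 after quantile normalization and −0.148 to −0.0614 without 1 sample.

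Members near 0 changed sign without passing. Syk was −0.0003 with arrays centred on their medians, −0.0134 after quantile normalization, −0.0217 with sex as a term, −0.32 within males and −0.12 to 0.13 without 1 sample. Prkcb was −0.0452 with the mean of its probe sets, −0.19 with the most variable, −0.0129 after quantile normalization, −0.0105 within females and −0.0701 to 0.0533 without 1 sample. Cd79b was 0.0285 within males and −0.11 to 0.0146 without 1 sample, and Plcg2 −0.0677 to 0.0905. The cause was not tested.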
